A study of Bombyx mori with 2 samples.

Results

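Bm_scaf5 is a scaffold of the silkworm genome sequence of SilkDB, and 1020 of the 47001 variant sites listed for the whole series lie on it. A variant site is a position where sequenced RNA differed from the genome sequence. The members are the listed sites on this scaffold, unique by position, reference base and alternative base, of which 987 were single-base variants and 33 were insertions or deletions (indels). They fell in 155 genes between positions 18839 and 8674652. The scaffold was chosen by the mix of alleles at its sites, so the shares of mixed sites below describe that choice and were not tested.

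The RNA came from epidermis of *Bombyx mori* larvae of the 4th instar, 6 hours after molting. A single library was made from 932VR, a plain strain labelled wildtype, and another from the *q-lp* mutant, a pigment mutant with quail-like markings that was obtained from 932VR and kept by inbreeding. Tissue of 3 silkworms was pooled for each library. The deposited tables give, for each site, reads of both libraries together, so no value could be given for 932VR or for *q-lp* alone, and no comparison between them could be made. The tables name the gene of a site with its start and end, but not whether the site lies in an exon, an intron or a UTR.

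In a diploid insect, a site where every chromosome in the pool carries the base not found in the genome sequence yields close to 100% alternative reads. A site where both bases are present yields an intermediate percent that also follows how strongly each copy is transcribed. Inbreeding fixes a single allele at most positions, and neighbouring positions are inherited together because crossing over is limited; in Lepidoptera, females do not cross over at all. A mixed site can lie between the strains or within either of them, and the pooled reads alone do not tell these apart. The study's expression values by strain, which bear on the library that a gene's reads came from, were not used here. Positions where all reads had the reference base are not listed.

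The 4 indels of 3 or more gained or lost bases that at least 10 reads covered on the scaffold all carried both alleles. They are shown because they are the longest indels among these sites. Those of BGIBMGA006048, BGIBMGA006214 and BGIBMGA006222 lie in the mixed stretches described below, and that of BGIBMGA005944 lies between stretches. Sequences run along the genome sequence, and capitals mark the bases that one allele has and the other lacks.

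BGIBMGA006048 reference allele from 1018856 to 1018858: ata
BGIBMGA006048 alternative allele: ataCTTA
BGIBMGA005944 reference allele from 7478545 to 7478551: aCTACTG
BGIBMGA005944 alternative allele: a
BGIBMGA006214 reference allele from 8134328 to 8134332: taaac
BGIBMGA006214 alternative allele: taaacAAAC
BGIBMGA006222 reference allele from 8288047 to 8288052: agatga
BGIBMGA006222 alternative allele: agatgaGGATGA

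The gained 4 bases in BGIBMGA006048 were read 13 times, and the shorter allele was also read 13 times. In BGIBMGA006214, 14 of 63 reads carried the gained 4 bases, a share of 22.22% (95% Wilson interval 13.7% to 33.9%). In BGIBMGA006222, 5 of 25 reads carried 6 gained bases, in which the motif next to them is almost repeated. The loss of 6 bases in BGIBMGA005944 was found in 6 of 19 reads (31.58%), and it was the only mixed site among 10 in that gene.

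The coverage of a site on Bm_scaf5 was 2 to 98 reads with a median of 9, against 2 to 100 and a median of 6 on the other scaffolds. At least 10 reads covered 504 sites in 105 genes, and the shares below take these sites. A site was called mixed when 20% to 80% of its reads had the alternative allele. Of the 504 sites, 291 were mixed, that is 57.7% (95% Wilson interval 53.4% to 62.0%). Over all scaffolds the share was 21.0%, and over the scaffolds other than Bm_scaf5 it was 19.99% (19.4% to 20.6%, 3533 of 17670 sites). Intervals cover counting error only, and neighbouring sites share reads and haplotypes, so they are narrower than the true uncertainty.

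At the sites that were not mixed, mostly all reads had the alternative allele. On Bm_scaf5, 180 of the 504 sites (35.7%) had 100% alternative reads, 14 lay between 80% and 100%, and 19 lay below 20%. On the other scaffolds 76.3% of sites had 100% alternative reads. Close to the lower limit, 36 sites lay from 20% to under 25% (20% to 24.49%) and 12 lay from 15% to under 20% (16.67% to 19.23%). Close to the upper limit, 4 sites lay from 75% to 80% and 2 lay just above it, at 81.82% and 84.62%. The lower limit thus divided a denser part of the distribution than the upper limit.

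Among the 59 scaffolds with at least 100 such sites, Bm_scaf5 held the most mixed sites and had the 4th highest share. The share was higher on Bm_scaf77 (97 of 126 sites, 77.0%), Bm_scaf43 (168 of 250, 67.2%) and Bm_scaf74 (60 of 100, interval 50.2% to 69.1%). The intervals of Bm_scaf43 and Bm_scaf74 overlapped that of Bm_scaf5. The other 58 scaffolds ranged from 0% to 77.0% with a median of 17.0%, and 3 of them reached 50%. A high share was therefore not limited to Bm_scaf5, but the 3 scaffolds above it held fewer sites each.

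**Figure D1:**
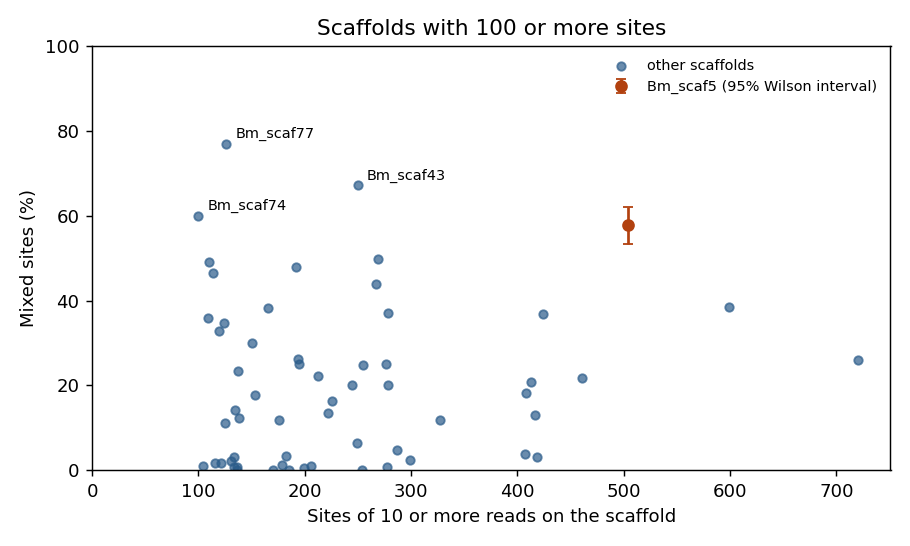
Share of mixed sites (vertical axis, percent) against the number of sites of 10 or more reads for the 59 scaffolds with at least 100 sites; each point is 1 scaffold, and the bar is the 95% Wilson interval of Bm_scaf5. Bm_scaf5, with 504 sites, stands at 57.7%, below 3 scaffolds with 100 to 250 sites.

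The share changed along the scaffold when it was followed in windows of 1 Mb. In the first window 25 of 34 sites were mixed (73.5%, interval 56.9% to 85.4%). The second window, from 1000001 to 2000000, had the highest share on the scaffold, with 98 of 110 sites in 19 genes (89.1%, 81.9% to 93.6%). Only 2 of the 295 windows on other scaffolds with at least 20 sites reached that share. The share then fell to 14 of 28 sites in the third window (interval 32.6% to 67.4%) and 13 of 22 in the fourth (59.1%, 38.7% to 76.7%). The fifth window held 12 sites in 3 genes, 8 of them mixed, and was not ranked because it had under 20 sites.

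The right part of the scaffold alternated. In the sixth window 24 of 80 sites were mixed, a share of 30% (21.1% to 40.8%), and in the seventh 29 of 71 (40.8%, 30.2% to 52.5%). In the eighth, from 7000001 to 8000000, only 4 of 52 sites in 13 genes were mixed (7.69%, 3.03% to 18.2%), the lowest share among these windows. With windows that begin at 500001, 1500001 and so on, the lowest was instead the one from 4500001, with 0 of 20 sites, and the one from 6500001 had 14 of 65 (21.5%). The ninth window, which is cut short by the end of the listed sites, returned to 76 of 95 sites in 19 genes, a share of 80% (70.9% to 86.8%), and 8 of the 295 other windows reached that share. Of the 8 windows with at least 20 sites, 5 had a share of at least 50% (62.5%), against 44 of 295 on other scaffolds (14.9%). The windows on other scaffolds had a median of 3.70% and an upper quartile of 36.0%.

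Single genes weighed on some windows. Without BGIBMGA005980 the sixth window fell to 16.4%, without BGIBMGA006178 the seventh rose to 56.1%, and without BGIBMGA006134 the fourth fell to 38.5%. The third window fell to 38.9% without BGIBMGA006025. Leaving out 1 gene moved the second window only between 86.4% and 90.8%, and the ninth between 75% and 85.9%. The eighth window stayed between 4% and 11.4%. The high and low ends of the profile thus did not rest on 1 gene, while the windows in the middle partly did.

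**Figure D2:**
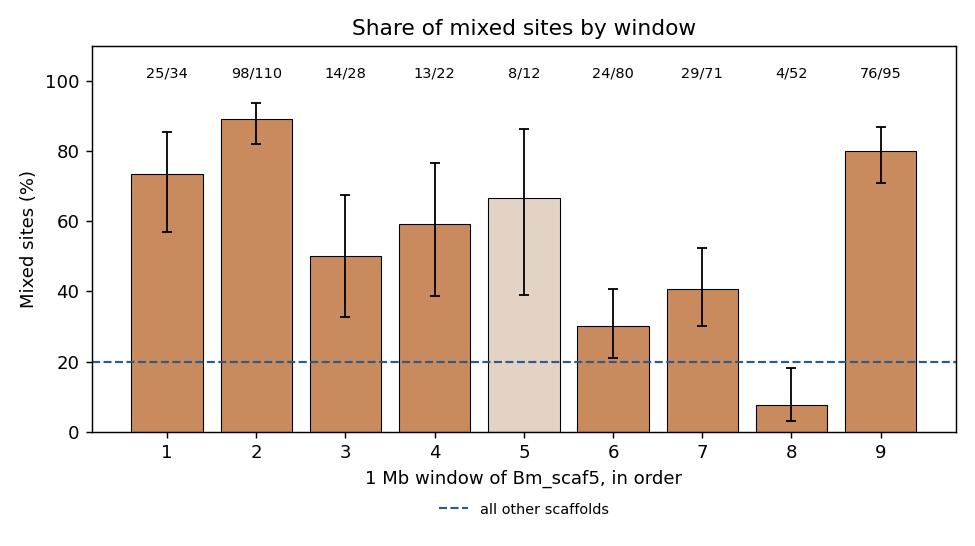
Share of mixed sites (vertical axis, percent) in the 9 windows of 1 Mb along Bm_scaf5; bars carry 95% Wilson intervals, numbers above them give mixed sites over all sites, the pale bar has under 20 sites, and the dashed line is the 19.99% of the other scaffolds. The second window (98 of 110) and the ninth (76 of 95) are high, and the eighth (4 of 52) is low.

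Coverage did not separate mixed sites from the others. The median coverage was 23 reads at the mixed sites of Bm_scaf5 and 23 at the rest, and it was 21 and 20 on the other scaffolds. The eighth window, with the lowest share, had the highest median coverage of all windows, 43.5 reads, while the second had 24 and the ninth 29. In the third window the median was 13.5 reads and in the fourth it was 14. At sites under 10 reads, where an allele is easily missed, 122 of 516 sites were mixed (23.6%), against 8.01% on other scaffolds. In the eighth window 2 of 86 sites under 10 reads were mixed, and in the second 24 of 43.

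To find where mixed alleles begin and end, sites were scored in order, +1 for a mixed site and -1 for any other, and maximal-scoring segments of at least 5 were taken as mixed stretches. In all, 5 such stretches were found. They covered 5778 kb and held 284 of the 291 mixed sites, so that 7 mixed sites lay among the 139 sites outside. On the other scaffolds 122 stretches were found, on 75 of 250 scaffolds, with a median score of 11 and a median length of 90.4 kb. How many stretches are found, and where they end, depended on the settings.

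The first stretch ran from 18839, the first listed site, to 4323972, over 4305 kb. It held 204 sites in 49 genes, of which 158 were mixed (77.5%), and scored 112. At these settings none of the 122 stretches elsewhere was longer, the longest being 2618 kb on Bm_scaf46, and 1 scored higher (118, on Bm_scaf43). This rank was not worked out under the other settings, some of which split the stretch. The stretch was itself uneven. Of its 49 genes, 20 had mixed sites alone, 14 had both kinds and 15 had none, and the sites of 10 or more reads left a gap of 935 kb from 2333649 to 3268324. Just before this gap lay the adjoining genes BGIBMGA006023, BGIBMGA006022 and BGIBMGA006129, whose 8 sites of 10 to 55 reads were all at 100%. With sites of at least 5 reads the stretch was split into 18839 to 2140447 and 3266962 to 4323972. With -2 for a site that is not mixed, its pieces were 435514 to 2208371, 3268324 to 3270671 and 3686090 to 4323972. With limits of 30% to 70% it was broken up, its first piece running from 435636 to 1053925.

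On the left the stretch reached the first site listed, so no start was seen. It opened in BGIBMGA006085 (17912 to 21546), with 6 mixed sites of 7. Of these, A18839T, T18992C, A19794T and A21402T (reference base, scaffold position, alternative base), had 56% to 66.67% alternative reads, and the last ones, A21483G and G21522A, had 27.14% and 29.07%. The site between both groups, T21479C, had 100% of 66 reads. The right edge lay in BGIBMGA006004 (4322161 to 4327423), whose 5 sites, covered by 23 to 50 reads, were at 39.13% to 52%. The next covered site lay at 4718748 in BGIBMGA005999, where 62 of 62 reads carried an extra base, so the edge is known only to 394776 bases. Between them lay 10 sites of 3 to 7 reads, of which 1 was mixed.

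From there to 5752173, 43 sites in 12 genes followed, of which 41 were at 100% and 1 was mixed. BGIBMGA006162 (5256861 to 5264606) had 12 sites and BGIBMGA006171 (5696075 to 5704317) had 11, all at 100%, with 10 to 22 and 12 to 59 reads. BGIBMGA006161, close to the former, had 3 sites of 26 to 57 reads, again at 100%.

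The second stretch ran from 5761552 to 6041721 over 280.2 kb, with 28 mixed sites of 44 in 5 genes. No site of 10 or more reads lay in the 171605 bases between 5869968 and 6041573. The left edge of the stretch was narrow. BGIBMGA005981 had 100% of 29 reads at 5752173, and 9379 bases further BGIBMGA006173 (5761547 to 5762644) had 7 mixed sites of 8, at 39.29% to 67.35%. The neighbour BGIBMGA005980 (5763566 to 5772183) had 15 mixed sites of 25, and 9 at 100%. The stretch also held BGIBMGA005977, with 4 sites at 90% to 100%, and closed in BGIBMGA006177 (6041246 to 6041825), with 5 mixed sites of 5 at 30.43% to 69.23%. The next site, in BGIBMGA005969, was 2684 bases away and had 100% of 27 reads. With at least 20 reads the stretch shrank to 5761552 to 5762326.

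With the limit of 20%, the third stretch began inside a gene. BGIBMGA006178 (6047649 to 6050464) had 30 sites, the most of any gene on the scaffold, and changed class 4 times. After 1 mixed site, 20 sites from 6047795 to 6049373 had 100% of 10 to 64 reads. Next were 3 mixed sites from 6049430 to 6049518, at 38.89% to 55.26% of 36 to 42 reads. Then came 4 sites that were not mixed, at 18.18% to 100%. The last of these, at 18.52% and 18.18%, lay just under the limit and carried both alleles. At the end came a pair of mixed sites at 6050148 and 6050154. The stretch opened with this pair and ran to 6296739 in BGIBMGA006181 (6281736 to 6301824), whose 6 sites were at 36.36% to 57.14%. All of its 10 sites in 3 genes were mixed, but none lay in the 202086 bases between 6089706 and 6291792. After it came BGIBMGA005965 (6480950 to 6501321), with 13 sites of 10 to 36 reads, all at 100%, while 8 of 15 sites under 10 reads in between were mixed. This edge is known only to 186 kb. The stretch was absent with at least 20 reads, and with limits of 30% to 70% it ran only from 6291792 to 6296739. With at least 5 reads it ran from 6291792 to 6404607, so that it no longer began inside BGIBMGA006178.

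The fourth stretch was the weakest, with a score of 7, and ran over 595 kb from 6565311 to 7160330 with 12 mixed sites of 17. Of this span, the 460026 bases between 6652772 and 7112798 held no site of 10 or more reads, and the site at 7112798 was at 100%. The stretch opened in BGIBMGA006186, with 2 mixed sites, and rested mainly on BGIBMGA005963 (6638125 to 6652877), with 8 mixed sites of 12. The other 4 sites of that gene were at 12.5% to 19.05%, just under the limit, so that all 12 carried both alleles. The stretch closed in BGIBMGA005952 with 2 mixed sites at 23.26% and 46.67%, 48.2 kb before a site in BGIBMGA005951 at 100% of 47 reads. It was absent with a minimum score of 10, with at least 20 reads, with limits of 30% to 70% and with -2 for a site that is not mixed.

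Between 7208573 and 8059700, 52 sites in 12 genes had a median coverage of 46 reads, and 46 of them were at 100% and 2 were mixed. Fixed genes here included BGIBMGA005946 (7363807 to 7374644), with 17 sites of 39 to 93 reads at 98.18% to 100%, and BGIBMGA006193 (7273629 to 7281228), with 9 sites at 100%. With the minimum coverage raised to 20 reads, the share of mixed sites in the eighth window was 2.56%.

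The fifth stretch, at the right end, was the densest of the larger ones. It ran over 351 kb from 8121989 to 8473264, with 76 mixed sites of 90 (84.4%) in 17 genes and a score of 62, which 2 stretches on other scaffolds exceeded. It opened in BGIBMGA006213 (8113518 to 8124033), with 6 mixed sites of 6 at 30% to 77.78%. The last covered sites before it were in BGIBMGA005934, G8058473A and C8058530G at 100% of 52 and 49 reads, and A8059700G at 14.29% of 14 reads. The edge was thus bracketed within 62.3 kb, and 3 of 6 sites under 10 reads in that bracket, all in 1 gene, were mixed. The stretch closed in BGIBMGA005923 (8473207 to 8473830), with 3 mixed sites at 21.21% to 23.08%, and 6347 bases further both sites of BGIBMGA005922 were at 100% of 37 reads. With at least 20 reads, or with -2 for a site that is not mixed, its right edge moved to 8379531. With 30% to 70% as the limits it shrank to 8133633 to 8262761.

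Alanine-tRNA ligase (BGIBMGA006216, 8169535 to 8171127), the enzyme that loads alanine onto its transfer RNA, is the only gene of the scaffold that the study names, and it lay inside the fifth stretch. Its 4 sites were all mixed. A8169589G had 31 of 56 reads with the alternative base, 55.36% (95% Wilson interval 42.4% to 67.6%). G8169795T had 35 of 87 (40.23%, 30.6% to 50.7%). T8170270C and A8171118G had 45.71% of 70 reads and 48.15% of 27. The 4 intervals overlapped. The primers that the study designed for this transcript are printed as the only transcript sequence of the scaffold held here; whether a listed site falls in them was not determined.

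BGIBMGA006216 forward primer: aacagatcaaagatacggaaaacga
BGIBMGA006216 reverse primer: cgggtactcctactgatacgact

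On both sides of alanine-tRNA ligase the genes were mixed as well. BGIBMGA006214 (8132104 to 8137598) had 22 mixed sites of 23 at 30 to 92 reads, and its remaining site was at 16.67%. BGIBMGA005933 (8174443 to 8186545) had 13 mixed sites of 13, at 22.22% to 47.62%. BGIBMGA006215 between them had both of its sites mixed. In BGIBMGA006221, the only gene of the stretch without a mixed site, the single site was at 13.79% of 29 reads and thus also carried both alleles.

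Gene by gene, 54 genes had at least 3 sites. A gene was called mixed when at least 50% of its sites were mixed, fixed when none was, and partly mixed otherwise. Of the 54 genes, 35 were mixed (64.8%), 6 partly mixed (11.1%) and 13 fixed (24.1%). Among 1874 such genes on the other scaffolds the shares were 21.9%, 8.86% and 69.3%. Another 51 genes of Bm_scaf5 had 1 or 2 sites, and 50 had only sites under 10 reads. The second window held 12 mixed genes, 1 partly mixed and none fixed. The ninth held 8 mixed genes and 1 fixed, and the eighth held no mixed gene, 1 partly mixed and 3 fixed. A gene called fixed can still carry both alleles, as BGIBMGA005934, the fixed gene of the ninth window, had a site at 14.29%. With limits of 10% to 90%, 11 genes were fixed. The sixth window was the one with the most fixed genes, 5 of 8. When each gene counted once, the mean share of mixed sites was 50.4% over the genes of Bm_scaf5 and 17.8% over those of other scaffolds.

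**Figure D3:**
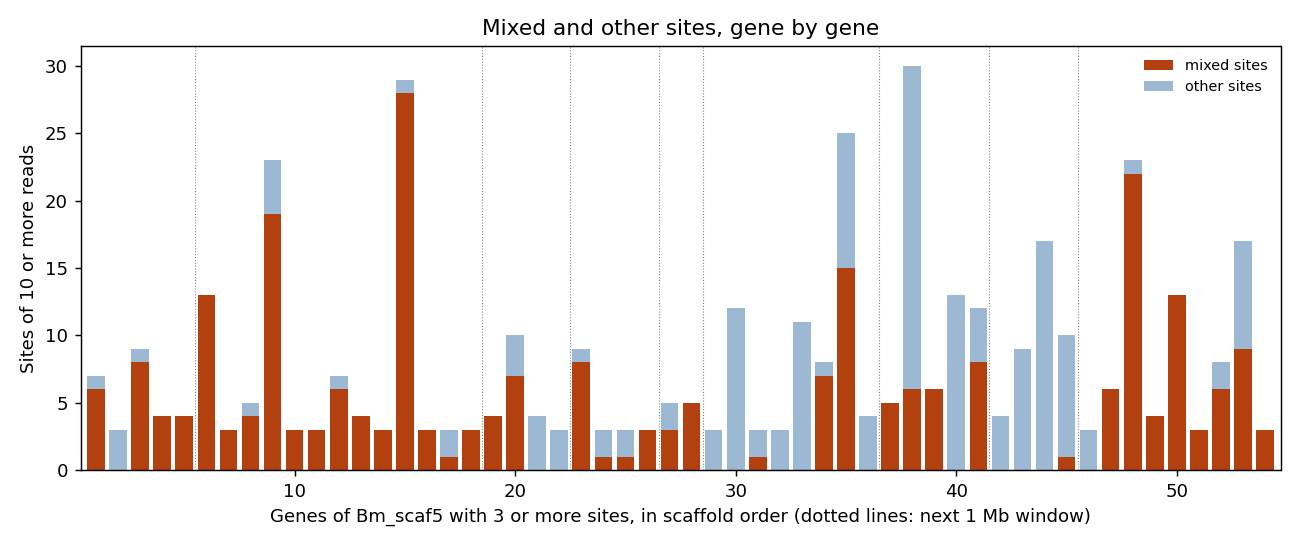
Number of mixed and other sites of 10 or more reads (vertical axis) in each of the 54 genes of Bm_scaf5 with at least 3 sites, in scaffold order; dotted lines mark where the next 1 Mb window begins. The second window (12) and the ninth (8) hold the most mixed genes, and the eighth holds none. The third to the seventh together hold mixed, partly mixed and fixed genes.

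Neighbouring sites of the same gene were of the same class in 340 of 399 pairs (85.2%), and neighbouring sites of different genes in 62 of 104 pairs (59.6%). On other scaffolds these shares were 89.4% and 83.6%. They depend on the share of mixed sites, which differs between the sets, and were not tested. On Bm_scaf5 the class changed more often from one gene to the next than within a gene.

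Within mixed genes the alternative share was uniform to different degrees. BGIBMGA006036 (1533777 to 1536667), with the most mixed sites of the scaffold, had 28 of 29. Its 12 sites before the widest gap between sites, 838 bases, were at 21.62% to 32.35% with a median of 27.6%. The 16 mixed sites after it were at 26.09% to 65.71% with a median of 46.8%. In BGIBMGA006214 the medians on either side of the widest gap, 630 bases, were 27.7% over 17 mixed sites and 48.4% over 5. The reads pooled over these sites gave 31.0% and 41.3%. Both parts were uneven, at 20.63% to 46.67% and 23.81% to 53.33%, and the difference was not tested. BGIBMGA006044 (1132951 to 1143870), with 19 mixed sites of 23, had medians of 37.2% over 4 mixed sites and 27.3% over 15. Its pooled reads gave 35.2% and 27.8%, and this difference was not tested either. The first part of this gene also held 3 sites at 100%, among sites that were mixed. BGIBMGA006048 (1015603 to 1022574) had 13 mixed sites of 13 at 32% to 68.57%. The 2 sites after its widest gap were at 32% and 34.62%, and the earlier ones had a median of 47.6%.

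The spread of the alternative share over the mixed sites of a gene was set against the spread that read counts alone would give, as a ratio of variances. Over the 20 genes with at least 5 mixed sites this ratio had a median of 1.43 and ranged from 0.284 in BGIBMGA006181 to 8.65 in BGIBMGA006085. It was above 2 in 8 genes, among them BGIBMGA006213 (3.36) and BGIBMGA006214 (3.10). In BGIBMGA006044 (0.677) and BGIBMGA005933 (0.838) the sites differed by no more than read counts alone would give. The limits of 20% and 80% cap this spread, and reads that span several sites are counted at each of them.

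**Figure D4:**
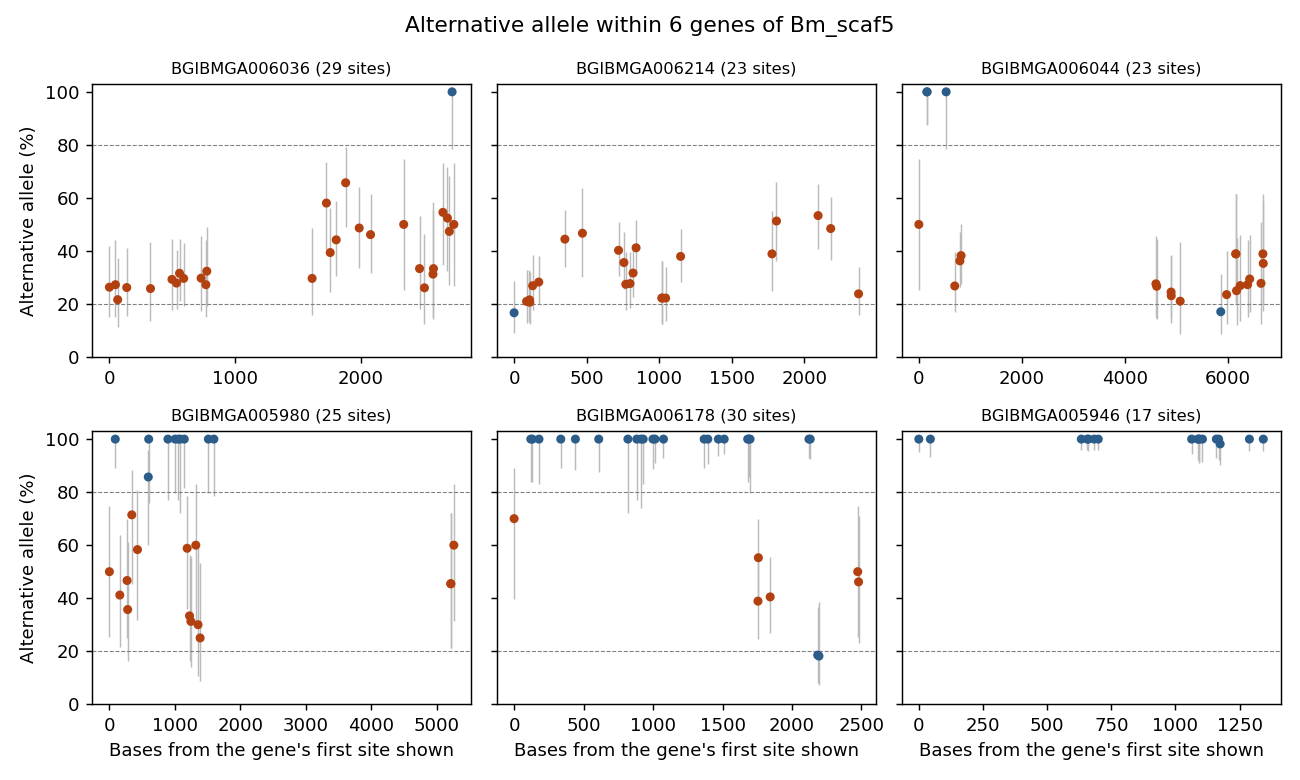
Percent of reads with the alternative allele (vertical axis, with 95% Wilson intervals) by distance in bases from the first site shown in 6 genes; blue points are sites outside 20% to 80%. BGIBMGA006036 and BGIBMGA006214 are mixed at all but 1 site each, and BGIBMGA005946 stays at 98.18% to 100%. BGIBMGA005980 and BGIBMGA006178 alternate mainly between mixed sites and sites at 100%. The former also has a site at 85.71%, and the latter has sites at 18.18% and 18.52%.

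Where both alleles were present, the alternative allele was more often the rarer one. Of the 291 mixed sites of Bm_scaf5, 204 had under 50% alternative reads (70.1%, 95% Wilson interval 64.6% to 75.1%), against 2083 of 3533 on other scaffolds (59.0%, 57.3% to 60.6%). Linked sites of a gene count separately here, so genes with many mixed sites weigh on these shares and the intervals are too narrow. The scaffold was chosen by the percent of alternative reads, and the difference was not tested. The median was 38.9% on Bm_scaf5, with quartiles of 28.6% and 50%, and 44.4% elsewhere. By stretch, the alternative base was under 50% at 108 of 158 mixed sites in the first and 62 of 76 in the fifth, but at 14 of 28 in the second. The medians of these stretches were 39.0%, 36.6% and 48.3%.

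The kinds of change were not used to choose the scaffold. Transitions, exchanges within purines or within pyrimidines, made up 187 of 285 mixed single-base sites (65.6%, 95% Wilson interval 59.9% to 70.9%) and 125 of 207 others (60.4%, 53.6% to 66.8%). On other scaffolds the shares were 71.0% (69.5% to 72.5%) and 67.5% (66.8% to 68.3%). The 2 intervals of Bm_scaf5 overlapped, and no difference between mixed and other sites was detectable at this number of sites. Indels made up 6 of 291 mixed sites (2.06%, 0.948% to 4.42%) and 4 of 213 others (1.88%, 0.733% to 4.73%). On other scaffolds they made up 1.16% (0.857% to 1.57%) of mixed sites and 2.09% (1.86% to 2.34%) of others.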

How the data were processed

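Epidermal RNA of 932VR and *q-lp* was sequenced by the authors in 2 paired-end libraries, 1 per strain, and aligned to the SilkDB silkworm genome; the release, aligner, variant caller and filters are not given in the sources used here. The deposited tables hold a read count (the coverage) for every site and, as a percent of it, the reads with the base not found in the genome; reads of the strains are not separated. Reads per allele are the product of both, rounded. Of 47044 rows, 43 repeat a site under another gene and were dropped, none of them on Bm_scaf5. An emptied line of the indel table was not used here.

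Sites with at least 10 reads were used, and shares carry 95% Wilson intervals. Segments were found with the algorithm of Ruzzo and Tompa in Python 3.11.15 with pandas 2.3.3 and checked on simulated data. With 1 library per strain and pooled reads, no test was made. Genes named are the 5 with the most mixed sites, the 5 fixed genes with the most sites, those at the edges of the stretches and the gene that the study names; others were chosen after their values were seen. The scaffold, the limits and the lists were chosen with earlier results of these data known. Alternatives were a minimum of 5 or 20 reads, limits of 10% to 90% and 30% to 70%, single-base sites alone, genes counted once, shifted windows and other scores.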

Additional observations from a re-analysis of the deposited data

How the results depend on the processing

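The share of mixed sites on Bm_scaf5, 57.7%, was 52.3% with at least 5 reads, 62.9% with limits of 10% to 90%, 39.7% with 30% to 70% and 50.4% with each gene counted once. With 1 site per 500 bases, an alternative chosen after seeing the data, it was 49.5%. It stayed 2.73 to 2.90 times that of the other scaffolds over the alternatives of coverage, limits and single-base sites. Without 1 gene, also chosen after seeing the data, it was 55.4% to 60.1%. Windows with a share of at least 50% numbered 5, but 3 with at least 20 reads, where 6 windows kept 20 sites, and 3 with limits of 30% to 70%. Mixed genes numbered 35, but 21 with at least 20 reads, where fewer genes keep 3 sites. The number of stretches, 5, moved most: it was 3 with at least 20 reads, 1 with limits of 10% to 90%, 8 with 30% to 70%, 9 with -2 and 1 with -0.5 for a site that is not mixed. In both settings with 1 stretch it ran from 18839 to 8473264. Of 45 window values under alternatives, 6 left the interval of the reported value. The edges are known only to the spacing of sites with at least 10 reads. No paired analysis was possible because each strain has 1 library and the tables pool both.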
